A study of Mus musculus with 18 samples.

Results

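Fibroblasts sorted from pancreatic tumors were compared with fibroblasts sorted from normal pancreas of mice. The tumor group (WT_CAF, cancer-associated fibroblasts with intact Saa3) has 5 libraries and the normal group (NPF, normal pancreatic fibroblasts) has 3, so that 8 of the 18 libraries of the series carry the comparison. Libraries were assigned by their group labels and by no measured value. Fibroblasts make and remodel the collagen-rich matrix of an organ. In pancreatic cancer they form much of the tumor mass, and they are known to take on either a contractile state or an inflammatory state that secretes cytokines, complement and acute-phase proteins. Quiescent pancreatic stellate cells, a source of such fibroblasts, are known for storing retinoids.

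Per the labels, both groups came from mice that carry Elas-tTA/tetO-Cre, in which the elastase promoter of acinar cells drives a Cre recombinase, and the Rosa26+/EYFP reporter. Of the alleles reported here, the WT_CAF mice carry Trp53lox/lox in addition, and the NPF labels name no altered Trp53. The groups differ both in genotype and in tumor against normal tissue, and these cannot be told apart. Because the elastase promoter is an acinar promoter, the labels do not place recombination in the fibroblasts themselves. The remaining groups are tumor fibroblasts lacking Saa3 (KO_CAF, 3 libraries) and tumor cells with and without Saa3 (WT_tumor, 4, and KO_tumor, 3). They entered the fit for its estimate of the spread and for its term for the label index, so they also bear on the size of the differences. Their ranges are given beside the members where they help. The labels used here name no sort markers, no ages and no number of mice per library.

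Values are FPKM, fragments scaled to transcript length and to the size of the library, so that they are a level per length. Differences are on the log2(FPKM + 1) scale, WT_CAF minus NPF, as estimate ± standard error, and a gene is called when its limma p, adjusted over all 13369 genes tested, is under 0.05. Where a pair of differences stands in parentheses, the first is from all libraries and the second is without WT_CAF 1. In the 8 libraries, 10793 to 11458 genes were at 1 FPKM or more. FPKM summed to 396646 to 919859 per library, and the number of fragments behind them is unknown. All 3 NPF libraries and WT_CAF 1 and 2 have labels without an index sequence, while WT_CAF 3 has a 6-base index and WT_CAF 4 and 5 have a 16-base index. The comparison within one label form is therefore possible only among those 5 libraries.

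The library labelled WT_CAF 1 stands apart from WT_CAF 2 to 5, so differences are given with and without it. Its nearest library by Spearman correlation over genes was WT_tumor 4 (0.887), while WT_CAF 2 to 5 were each nearest to a KO_CAF library (0.928 to 0.962). The median correlation of WT_CAF 1 was 0.803 with the tumor cell libraries, 0.783 with NPF and 0.744 with WT_CAF 2 to 5. WT_tumor 4 itself held 2.60 FPKM of the epithelial marker Epcam, against 129 to 586 in the other tumor cell libraries. Pdgfra, the growth factor receptor that defines these fibroblasts, stood at 61.04, 75.5 and 119 FPKM in NPF 1 to 3 and at 9.795, 121, 84.8, 117 and 80.95 in WT_CAF 1 to 5. WT_CAF 1 was the lowest of the 8 libraries, the other 4 lay within or just above the NPF range, and Pdgfra did not pass the test (-0.43 ± 0.64, adjusted p = 0.75; 0.400 ± 0.32, adjusted p = 0.47 without WT_CAF 1). The proteoglycan decorin, Dcn, was at 49.3 FPKM in WT_CAF 1 and at 1574 to 9938 in WT_CAF 2 to 5, and the epithelial keratin Krt19 at 119 against 7.04 to 41.6. The mean log2 level of 19 fibroblast markers, one of which (Col3a1) was listed at 0 in WT_CAF 2 to 4, was 4.64 in WT_CAF 1, 7.58 to 8.52 in WT_CAF 2 to 5 and 6.30 to 8.30 in NPF. Thy1, another of the 19 markers, was at 175 to 214 FPKM in NPF. In WT_CAF 1 to 5 it stood at 4.86, 199, 103, 3.55 and 1.35. It was singled out after its values were seen. By Pdgfra, Dcn and the marker mean, the fibroblast label thus holds for NPF and WT_CAF 2 to 5, and only weakly for WT_CAF 1. By Thy1 alone it would not hold for WT_CAF 4 and 5, whose labels carry a 16-base index. Thy1 was also at 1.51 FPKM in KO_CAF 3, which has a 16-base index too. In KO_CAF 1 and 2, with a 6-base index, it was at 172 and 48.8. The part of the label form in the Thy1 levels was not tested. These markers do not measure purity. In NPF 2 and 3 the summed FPKM of 21 acinar genes (9089 and 60940.5) exceeded that of the fibroblast markers (6398 and 12199.5).

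Of the markers of other cells, acinar genes differed most, with median differences of -5.94 with all libraries and -5.56 without WT_CAF 1. Of 20 tested, 0 were above 0 in either fit, and 1 was called lower in each. In 8 of 20 every WT_CAF library was below every NPF library, where 6.05% of all genes were. Of 14 macrophage markers 1 rose with all libraries and 7 without WT_CAF 1, and 0 of 18 epithelial markers were called in either fit by limma. Acinar enzyme genes (21) had a mean log2 level of 5.01, 7.43 and 9.99 in NPF, against 0.902 to 4.86 in WT_CAF. The defining acinar marker Prss1 was low throughout, at 0.189, 1.70 and 9.52 FPKM in NPF 1 to 3. It was at 0 in WT_CAF 1, 2, 3 and 5 and at 0.204 in WT_CAF 4, so the groups overlapped. The mean over 16 macrophage markers was 0.743 to 0.828 in NPF, 1.05 in WT_CAF 1 and 1.92 to 2.68 in WT_CAF 2 to 5, with 3 to 4 of 16 markers at 1 FPKM or more in NPF, 4 in WT_CAF 1 and 11 to 13 in WT_CAF 2 to 5. Epithelial markers lay at 0.479 to 1.45 in NPF and 1.32 to 3.33 in WT_CAF, ranges that overlap, with Epcam at 12.1 FPKM in WT_CAF 5 and at 0.2196 to 2.46 in the others. In sorted bulk samples, fewer cells of a type and less RNA per cell cannot be told apart.

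**Figure D1:**
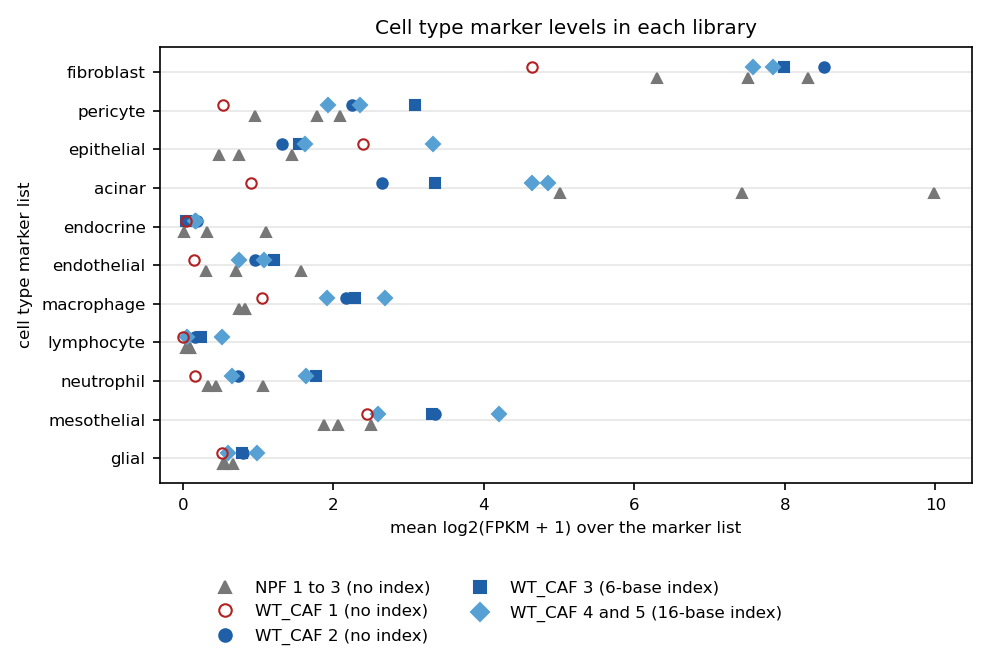
Mean log2(FPKM + 1) over each of 11 cell type marker lists (x axis) in the 3 NPF libraries (triangles) and the 5 WT_CAF libraries, with the shape giving the label form and WT_CAF 1 as an open circle; each point is 1 library. WT_CAF 1 lies at 4.64 on the fibroblast list, below the other 7 libraries, and the 3 NPF libraries hold the highest acinar means (5.01 to 9.99).

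With all libraries, 182 genes rose in WT_CAF (1.36% of 13369) and 278 fell (2.08%). Without WT_CAF 1, 675 rose (5.05%) and 616 fell (4.61%), and 454 calls were shared by both fits (179 higher and 275 lower). The counts of called members given below for each list are to be read beside these shares. No list was tested as a set. The genes that rose most in both fits held secreted proteins of host defense, such as Hp, Slpi and A2m, and genes of retinoid handling, such as Rdh10 and Stra6. The genes that fell most held the gut peptide Cck, the kallikrein Klk8, the calcium-binding protein S100a4 and the homeobox gene Hoxb9. The median difference over all genes was 0.0040 with all libraries and 0.0029 without WT_CAF 1. Within the 5 libraries without an index, limma called 1 gene higher and 0 lower, with 521 and 581 at an unadjusted p under 0.05. With WT_CAF 1 left out of those as well, 172 were higher and 7 lower, from 1 WT_CAF library whose spread is assumed to equal that of NPF.

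Of the largest rises, haptoglobin, Hp, which binds free hemoglobin, stood at 5.09, 0.387 and 2.61 FPKM in NPF 1 to 3 and at 5.45, 555, 200.4, 1199.7 and 405 in WT_CAF 1 to 5. The difference was 5.67 ± 1.26, adjusted p = 0.023 and 7.21 ± 0.76, adjusted p = 7.4e-05 without WT_CAF 1. WT_CAF 1 lay just above the highest NPF library, and the other 4 lay far above it. The protease inhibitor Slpi stood at 0.683, 0.6201 and 1.25 FPKM in NPF 1 to 3 and at 13.2, 136, 84.7, 53.002 and 443 in WT_CAF 1 to 5. For Slpi the difference was 5.42 ± 1.19, adjusted p = 0.022, and 6.23 ± 1.16, adjusted p = 0.0050 without WT_CAF 1. The broad protease inhibitor alpha-2-macroglobulin, A2m, stood at 5.36, 1.04 and 0.404 FPKM in NPF 1 to 3 and at 12.2, 297, 210.3, 48.1 and 119.8 in WT_CAF 1 to 5. For A2m the difference was 5.31 ± 0.93, adjusted p = 0.0065, and 6.302 ± 0.696, adjusted p = 1.1e-04 without WT_CAF 1. For both genes every WT_CAF library was above every NPF library, with WT_CAF 1 the lowest of its group. Transferrin, Trf, the iron carrier of plasma, stood at 8.69, 7.92 and 17.2 FPKM in NPF 1 to 3 and at 82.5, 139.7, 420.1, 277 and 342 in WT_CAF 1 to 5. For Trf the difference was 4.16 ± 0.64, adjusted p = 0.0027, and 4.59 ± 0.62, adjusted p = 5.9e-04 without WT_CAF 1. Calca, which encodes calcitonin and the peptide CGRP, stood at 0.0531, 0.136 and 0.559 FPKM in NPF 1 to 3 and at 0.361, 49.7, 56.7, 56.4 and 22.96 in WT_CAF 1 to 5. For Calca the difference was 4.05 ± 0.98, adjusted p = 0.035, and 5.34 ± 0.46, adjusted p = 1.6e-05 without WT_CAF 1. WT_CAF 1 fell inside the NPF range for Calca and well above it for Trf. Wdr92, a WD-repeat protein, was at 9.69 to 12.5 FPKM in NPF, at 16.4 in WT_CAF 1 and at 68.2 to 451 in the others (3.94 ± 0.85, adjusted p = 0.021; 5.06 ± 0.39, adjusted p = 6.0e-06). Pla2g7, which inactivates platelet-activating factor, stood at 0.789, 1.002 and 0.8305 FPKM in NPF 1 to 3 and at 73.2, 10.3, 67.98, 3.89 and 27.8 in WT_CAF 1 to 5. For Pla2g7 the difference was 3.92 ± 0.77, adjusted p = 0.012, and 3.46 ± 0.77, adjusted p = 0.013 without WT_CAF 1. The transcript AA465934 was at 0.388 to 1.596 FPKM in NPF and at 17.4 to 46.8 in WT_CAF (3.82 ± 0.41, adjusted p = 9.5e-05; 4.02 ± 0.42, adjusted p = 7.4e-05). Mir686, a microRNA gene, was at 2112, 2367 and 362 FPKM in WT_CAF 1 to 3 and at 0.071 or less in WT_CAF 4 and 5 and in NPF. Its groups overlap, and a gene this short is poorly measured by FPKM from poly(A) libraries. The tumor cell libraries held 53.4 to 358 FPKM of Trf, 21.3 to 53.8 of Pla2g7 and 12.8 to 48.9 of AA465934. WT_CAF 1 lay within that range for Trf and AA465934 and above it for Pla2g7. KO_CAF held 146 to 385 FPKM of Trf, 0.914 to 8.17 of Pla2g7 and 21.9 to 38.5 of AA465934. The part of tumor cell RNA in the levels of WT_CAF 1 was not tested.

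Of the largest falls, Klk8, a secreted serine protease, stood at 24.3, 95.8 and 59.4 FPKM in NPF 1 to 3 and at 0.112, 0.144, 0, 0.294 and 0.107 in WT_CAF 1 to 5. All WT_CAF libraries, WT_CAF 1 included, were below 0.3 FPKM, and the difference was -5.69 ± 0.41, adjusted p = 2.0e-06 and -5.73 ± 0.45, adjusted p = 6.0e-06 without WT_CAF 1. Hoxb9, a homeobox transcription factor of posterior identity, stood at 19.9, 21.3 and 9.93 FPKM in NPF 1 to 3 and at 0.394, 0.376, 0.182, 0 and 0 in WT_CAF 1 to 5. For Hoxb9 the difference was -3.796 ± 0.22, adjusted p = 4.6e-07, and -3.85 ± 0.24, adjusted p = 1.8e-06 without WT_CAF 1. It had the smallest adjusted p of the named genes in both fits. Cholecystokinin, Cck, stood at 337, 240.01 and 166 FPKM in NPF 1 to 3 and at 17.4, 0.153, 0.909, 0 and 2.25 in WT_CAF 1 to 5. For Cck the difference was -6.11 ± 1.04, adjusted p = 0.0054, and -6.91 ± 0.97, adjusted p = 6.8e-04 without WT_CAF 1. The epidermal gene Crct1 stood at 171, 17.7 and 9.14 FPKM in NPF 1 to 3 and at 0.0755, 0, 0, 0 and 0.811 in WT_CAF 1 to 5. For Crct1 the difference was -4.97 ± 0.69, adjusted p = 0.0011, and -4.998 ± 0.76, adjusted p = 0.0012 without WT_CAF 1. All 5 WT_CAF libraries were below 1 FPKM for Crct1, while WT_CAF 1 held 17.4 FPKM of Cck. S100a4, also known as fibroblast-specific protein, stood at 17383, 4053 and 2190.4 FPKM in NPF 1 to 3 and at 2021, 146, 84.3, 42.2 and 36.5 in WT_CAF 1 to 5. For S100a4 the difference was -4.78 ± 1.05, adjusted p = 0.022, and -5.89 ± 0.78, adjusted p = 5.2e-04 without WT_CAF 1. WT_CAF 1 lay just below the lowest NPF library, while WT_CAF 2 to 5 were far below. The proliferin gene Prl2c2 stood at 103, 69.5 and 35.1 FPKM in NPF 1 to 3 and at 15.6, 1.73, 0.0651, 0.0775 and 0.786 in WT_CAF 1 to 5. For Prl2c2 the difference was -4.56 ± 0.88, adjusted p = 0.011, and -5.43 ± 0.71, adjusted p = 4.6e-04 without WT_CAF 1. The neuropeptide Y receptor Npy1r was at 17.2 to 93.5 FPKM in NPF and at 0.139 to 3.71 in WT_CAF (-4.14 ± 0.53, adjusted p = 5.4e-04; -3.88 ± 0.54, adjusted p = 6.5e-04). The protease inhibitor Serpinb9b was at 95.5 to 197 FPKM in NPF and at 3.36 to 8.92 in WT_CAF (-4.94 ± 0.63, adjusted p = 6.1e-04; -5.27 ± 0.65, adjusted p = 2.9e-04). For Npy1r and Serpinb9b the groups did not overlap. The RIKEN-named genes 4930486L24Rik (-4.77 ± 0.76, adjusted p = 0.0032; -4.61 ± 0.82, adjusted p = 0.0038) and 3300005D01Rik (-3.92 ± 0.797, adjusted p = 0.015; -4.16 ± 0.86, adjusted p = 0.0085) fell too. The digestive protease Ctrl, a member of the acinar list, stood at 72.7, 398 and 2580.3 FPKM in NPF 1 to 3 and at 0.478, 2.94, 4.25, 12.7 and 15.5 in WT_CAF 1 to 5. For Ctrl the difference was -7.25 ± 1.82, adjusted p = 0.041, and -6.95 ± 1.99, adjusted p = 0.042 without WT_CAF 1. The acinar means given above differed in the same direction, and their part in this difference was not tested.

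**Figure D2:**
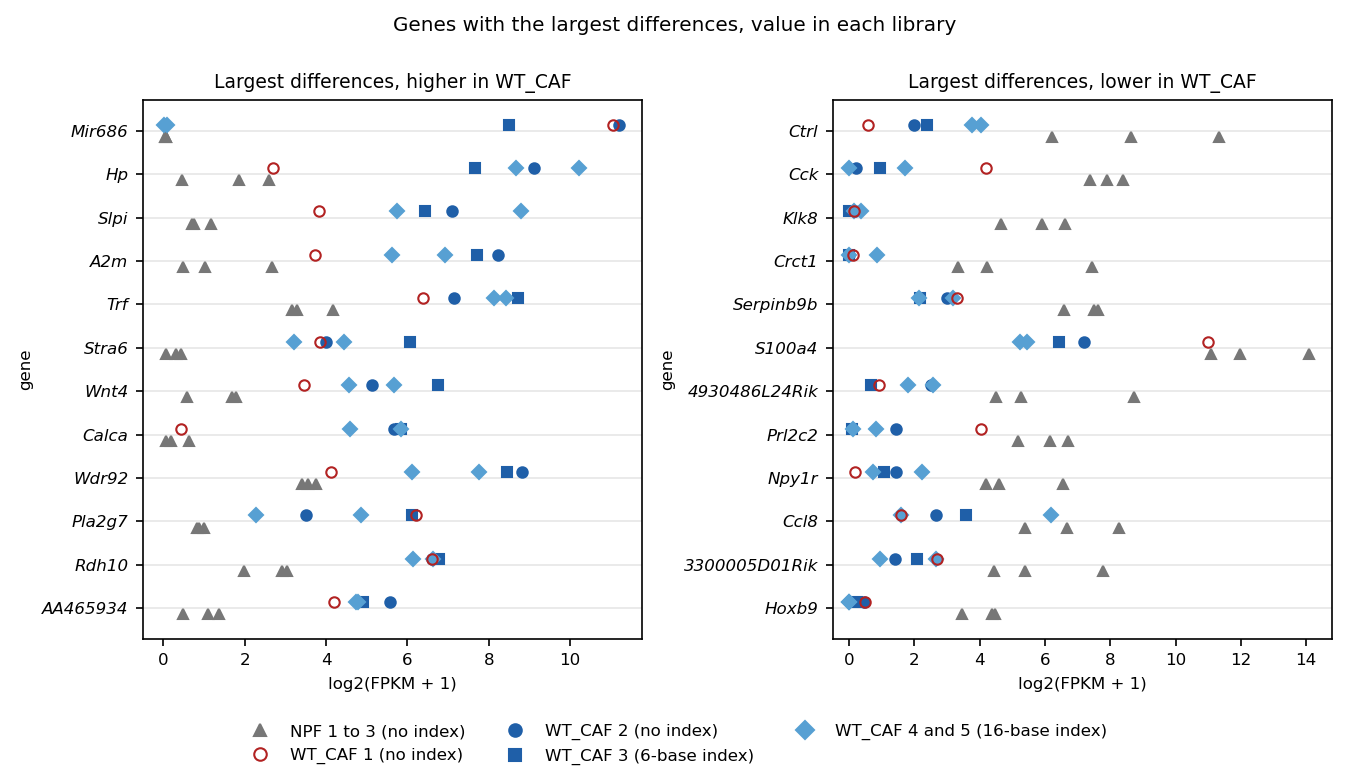
Level of the 12 genes with the largest rise (left) and the 12 with the largest fall (right), as log2(FPKM + 1) on the x axis, in each of the 8 libraries; triangles are NPF, the open circle is WT_CAF 1 and filled symbols are WT_CAF 2 to 5. WT_CAF 1 sits with the other WT_CAF libraries for Rdh10 (96.5 FPKM) and Klk8 (0.112 FPKM), and near NPF for Hp (5.45 FPKM), Calca (0.361 FPKM) and S100a4 (2021 FPKM).

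Several p53 target genes fell in WT_CAF, both with all libraries and without WT_CAF 1, whose fibroblast label holds only weakly. The protein p53 is a transcription factor that induces genes of cell cycle arrest, repair and apoptosis, among them Mdm2, whose product in turn degrades p53. Of 33 targets tested, 11 fell with all libraries and 14 without WT_CAF 1, and 0 rose in either fit. The list median was -1.20 with all libraries and -0.96 without WT_CAF 1, against about 0 for all genes. In 15 of 33 targets every WT_CAF library was below every NPF library, where 6.05% of all genes were, and without WT_CAF 1 in 17 of 33, where 10.2% of all genes were. Trp53 itself stood at 33.6, 45.7 and 37.002 FPKM in NPF 1 to 3 and at 2.85, 21.9, 34.7, 17.2 and 19.9 in WT_CAF 1 to 5, and it did not pass the test (-1.28 ± 0.59, adjusted p = 0.23; -0.59 ± 0.38, adjusted p = 0.36 without WT_CAF 1; exact permutation p = 0.0893 and 0.0857, 0.143 and 0.114 adjusted over 4 genes).

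Among feedback regulators, cyclin G1, Ccng1, stood at 285, 279 and 157 FPKM in NPF 1 to 3 and at 15.4, 30.9, 32.9, 35.6 and 35.6 in WT_CAF 1 to 5. It changed by -3.17 ± 0.29, adjusted p = 3.1e-05, by -2.95 ± 0.27, adjusted p = 3.3e-05 without WT_CAF 1 and by -3.35 within the libraries without an index. Mdm2 stood at 62.1, 78.1 and 50.7 FPKM in NPF 1 to 3 and at 10.3, 19.2, 19.6, 18.2 and 21.3 in WT_CAF 1 to 5. For Mdm2 the difference was -1.85 ± 0.25, adjusted p = 9.2e-04, and -1.63 ± 0.21, adjusted p = 4.5e-04 without WT_CAF 1 (-2.08 within the libraries without an index). For both genes WT_CAF 2 to 5 lay close together and WT_CAF 1 was lower still. Among arrest genes, the CDK inhibitor Cdkn1a stood at 99.95, 209 and 167 FPKM in NPF 1 to 3 and at 11.6, 65.3, 51.5, 24.5 and 21.2 in WT_CAF 1 to 5. For Cdkn1a the difference was -2.15 ± 0.49, adjusted p = 0.025, and -1.68 ± 0.39, adjusted p = 0.017 without WT_CAF 1 (-2.402 within the libraries without an index). Gtse1, a regulator of p53 in the cell cycle, was at 5.45 to 10.8 FPKM in NPF and at 0.891 to 3.01 in WT_CAF (-1.51 ± 0.34, adjusted p = 0.024; -1.68 ± 0.34, adjusted p = 0.0080). The spindle protein Psrc1 was at 10.3 to 18.7 FPKM in NPF and at 0.574 to 5.39 in WT_CAF (-2.41 ± 0.36, adjusted p = 0.0024; -2.21 ± 0.37, adjusted p = 0.0023). Among genes of cell death, the pore-forming protein Bax stood at 226, 142 and 89.6 FPKM in NPF 1 to 3 and at 59.8, 39.1, 64.6, 47.4 and 44.9 in WT_CAF 1 to 5. For Bax the difference was -1.44 ± 0.31, adjusted p = 0.020, and -1.51 ± 0.33, adjusted p = 0.013 without WT_CAF 1. The nuclease Aen stood at 35, 34.4 and 23.5 FPKM in NPF 1 to 3 and at 11.1, 10.1, 10.8, 12.5 and 10.1 in WT_CAF 1 to 5. For Aen the difference was -1.52 ± 0.23, adjusted p = 0.0025, and -1.57 ± 0.25, adjusted p = 0.0016 without WT_CAF 1. The desmosomal protein Perp stood at 30.7, 34.8 and 20.2 FPKM in NPF 1 to 3 and at 10.04, 1.46, 0.938, 0.837 and 11.02 in WT_CAF 1 to 5. For Perp the difference was -2.81 ± 0.59, adjusted p = 0.019, and -3.28 ± 0.54, adjusted p = 0.0023 without WT_CAF 1. In Bax, Aen and Perp no WT_CAF library reached the lowest NPF library. The receptor Eda2r (-2.07 ± 0.45, adjusted p = 0.021; -1.67 ± 0.39, adjusted p = 0.017), the zinc finger protein Zmat3 (-1.24 ± 0.25, adjusted p = 0.013; -1.29 ± 0.26, adjusted p = 0.0076) and the DNA polymerase Polk (-1.200 ± 0.23, adjusted p = 0.011; -1.29 ± 0.23, adjusted p = 0.0044) fell as well. Called only without WT_CAF 1 were Ddit4l, an mTOR inhibitor (7.05 FPKM in WT_CAF 1, 0.673 to 1.47 in the others and 5.84 to 9.22 in NPF; -1.798 ± 0.51, adjusted p = 0.063; -2.38 ± 0.34, adjusted p = 8.8e-04), the death receptor Tnfrsf10b (-0.902 ± 0.37, adjusted p = 0.17; -1.19 ± 0.34, adjusted p = 0.040) and the epoxide hydrolase Ephx1 (-2.24 ± 0.59, adjusted p = 0.051; -2.199 ± 0.65, adjusted p = 0.047). The p53 targets named here other than Ccng1, Mdm2, Ddit4l and Psrc1 were singled out after their values were seen. In the tumor fibroblasts without Saa3, Ccng1 lay at 27.4 to 46.2 FPKM, Mdm2 at 16.1 to 22.5 and Cdkn1a at 27.4 to 62.7, ranges that overlap those of WT_CAF. The tumor cell libraries held 6.81 to 19.4 FPKM of Ccng1, 11.3 to 21.8 of Mdm2 and 25.99 to 73.2 of Cdkn1a. WT_CAF 1, nearest to a tumor cell library, lay within that range for Ccng1 and below it for Mdm2 and Cdkn1a, and the part of tumor cell RNA in its levels was not tested.

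The promoter of Cdkn1a is shown because it is the one target, among those called in either fit, whose window held the core of the p53 response element, printed in capitals. The stretch runs from 150 to 31 bases before the RefSeq start (GRCm38.p6, chr17:29090829-29090948, plus strand), and the capitals begin at base -48.
Cdkn1a: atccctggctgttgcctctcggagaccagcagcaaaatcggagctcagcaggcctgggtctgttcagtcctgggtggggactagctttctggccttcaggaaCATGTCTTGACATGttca
Of the 33 targets, 24 had a window of 250 bases before their start, 3 of these held the core on either strand, and so did 1 of the 11 with a window that were called in either fit. The share was 5.84% among 32851 windows of all genes. A match is a description of the letters and no evidence of binding.

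**Figure D3:**
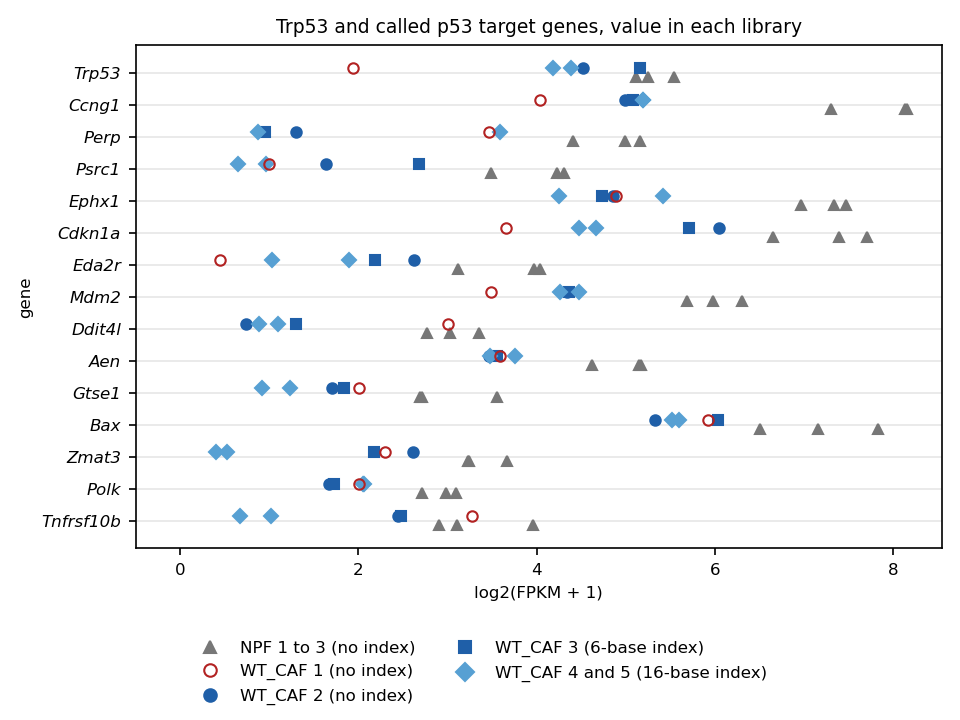
Level of Trp53 and of the 14 p53 targets called with or without WT_CAF 1, as log2(FPKM + 1) on the x axis, in each of the 8 libraries; symbols as above, triangles NPF and open circle WT_CAF 1. For Ccng1 the WT_CAF libraries lie at 15.4 to 35.6 FPKM against 157 to 285 in NPF, while Trp53 overlaps between the groups.

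Several acute-phase and complement genes rose in WT_CAF 2 to 5, and WT_CAF 1 lacked most of these rises. Acute-phase proteins are secreted in inflammation, chiefly by the liver, under the control of interleukin 1, interleukin 6 and C/EBP and STAT transcription factors, and complement proteins tag and lyse microbes. Of 13 acute-phase genes tested, 1 rose and 1 fell with all libraries, and 5 rose and 1 fell without WT_CAF 1, with medians of 0.40 and 0.89. Of 17 complement genes 0 were called with all libraries and 4 rose without WT_CAF 1, with medians of 0.92 and 1.67. WT_CAF 1 was below all 4 other WT_CAF libraries in 11 of the 13 and in 15 of the 17, where it was below them in 33.1% of all genes tested. This was not particular to these lists. It was below them in 17 of 19 fibroblast markers and 19 of 24 collagen genes as well, and in 0 of 33 genes of S phase and mitosis.

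Saa3, a serum amyloid protein and one of the markers given for these cells, stood at 331, 5.32 and 3.13 FPKM in NPF 1 to 3 and at 7.24, 892, 4278, 1182 and 2269.5 in WT_CAF 1 to 5. NPF 1 lay above WT_CAF 1, so the groups overlapped, and WT_CAF 2 to 5 lay above every NPF library. It changed by 6.74 ± 1.43, adjusted p = 0.010 without WT_CAF 1 and did not pass the test with all libraries (4.74 ± 1.89, adjusted p = 0.17; exact permutation p = 0.107, and 0.0286 without WT_CAF 1, the smallest this design allows, 0.143 and 0.0571 adjusted over 4 genes). Within the libraries without an index the difference was 2.06. The siderophore-binding lipocalin Lcn2 stood at 10.9, 0.215 and 0.1897 FPKM in NPF 1 to 3 and at 1.696, 77.3, 55.996, 185 and 46.3 in WT_CAF 1 to 5. For Lcn2 the difference was 3.91 ± 1.53, adjusted p = 0.16, and 5.18 ± 1.39, adjusted p = 0.032 without WT_CAF 1. NPF 1 was the highest NPF library for both Saa3 and Lcn2. The lipopolysaccharide-binding protein Lbp stood at 37.3, 10.5 and 22.4 FPKM in NPF 1 to 3 and at 14.8, 508, 224, 606 and 200.2 in WT_CAF 1 to 5. For Lbp the difference was 3.18 ± 1.19, adjusted p = 0.14, and 4.39 ± 0.94, adjusted p = 0.011 without WT_CAF 1. The protease inhibitor Serpina3n stood at 139, 74.1 and 66.6 FPKM in NPF 1 to 3 and at 17.7, 2019, 317, 1621 and 750.04 in WT_CAF 1 to 5. For Serpina3n the difference was 1.89 ± 1.197, adjusted p = 0.40, and 3.26 ± 0.81, adjusted p = 0.024 without WT_CAF 1. Its close relative Serpina3h went the other way and stood at 27.8, 59.1 and 37.997 FPKM in NPF 1 to 3 and at 0.801, 6.97, 9.87, 24.8 and 9.28 in WT_CAF 1 to 5. For Serpina3h the difference was -2.71 ± 0.64, adjusted p = 0.031, and -2.12 ± 0.54, adjusted p = 0.026 without WT_CAF 1. The Serpina3 genes lie in a cluster of near copies, so reads can be split among them and both values are uncertain.

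Complement factor B, Cfb, the protease of the alternative pathway, stood at 8.61, 9.47 and 18.01 FPKM in NPF 1 to 3 and at 7.79, 680.2, 307, 984 and 452 in WT_CAF 1 to 5. It did not pass the test with all libraries (3.85 ± 1.16, adjusted p = 0.074) and rose without WT_CAF 1 (5.296 ± 0.66, adjusted p = 3.2e-04). C4b, of the classical pathway, stood at 13.9, 13.4 and 25.2 FPKM in NPF 1 to 3 and at 11.9, 757, 252, 1386 and 362 in WT_CAF 1 to 5. For C4b the difference was 3.41 ± 1.14, adjusted p = 0.10, and 4.699 ± 0.797, adjusted p = 0.0027 without WT_CAF 1. C2, the protease partner of C4, was at 6.31 to 20.6 FPKM in NPF, 5.08 in WT_CAF 1 and 122 to 319 in WT_CAF 2 to 5 (2.54 ± 0.98, adjusted p = 0.15; 3.75 ± 0.56, adjusted p = 0.0011). Cfb, C4b and C2 stood in WT_CAF 1 below the NPF range. The inhibitor Cfi was at 0.06003 to 0.593 FPKM in NPF, 1.19 in WT_CAF 1 and 10.4 to 25.97 in the others (3.34 ± 1.07, adjusted p = 0.092; 4.17 ± 0.999, adjusted p = 0.019). In KO_CAF, Hp lay at 478 to 609 FPKM, Lcn2 at 83.6 to 212, Cfb at 219 to 884 and C4b at 189 to 1107, beside 0.434 to 1.85 for the deleted Saa3.

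Saa3 and Lcn2, both called without WT_CAF 1, held the C/EBP core in their promoter window and are shown with it in capitals. They are the 2 of 3 called genes with a window that did. The core was searched as TTGCNNAA on both strands. The stretch of Saa3 (GRCm38.p6, chr7:46715707-46715826, minus strand) runs from -150 to -31 with the match at -99, and that of Lcn2 (chr2:32387870-32387989, minus strand) from -250 to -131 with the match at -216.
Saa3: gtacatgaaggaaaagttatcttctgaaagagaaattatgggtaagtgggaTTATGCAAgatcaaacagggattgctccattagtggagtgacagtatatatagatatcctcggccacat
Lcn2: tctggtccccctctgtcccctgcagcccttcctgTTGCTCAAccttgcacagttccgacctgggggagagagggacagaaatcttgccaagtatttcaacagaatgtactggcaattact
Of the 13 acute-phase genes 10 had a window, and 5 of the 10 held the core, where 9.56% of all windows did.

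Some genes of the NF-kB feedback list rose without WT_CAF 1. The list holds genes that NF-kB induces and that restrain it, such as Nfkbia. Stat3 and Tnfaip2, also in the list, are not taken here as inhibitors. Of 24 tested, 0 were called with all libraries and 10 rose without WT_CAF 1 (medians 0.87 and 1.23), and WT_CAF 1 was below all other WT_CAF libraries in 21 of 24. The inhibitor Nfkbia stood at 14.7, 37.5 and 70.5 FPKM in NPF 1 to 3 and at 26.4, 521, 475, 749.8 and 129 in WT_CAF 1 to 5. For Nfkbia the difference was 2.55 ± 0.87, adjusted p = 0.11, and 3.51 ± 0.62, adjusted p = 0.0034 without WT_CAF 1. Bcl3, a nuclear member of the same inhibitor family, stood at 5.15, 9.16 and 12.4 FPKM in NPF 1 to 3 and at 9.61, 32.9, 75.9, 77.8 and 14.1 in WT_CAF 1 to 5. For Bcl3 the difference was 1.77 ± 0.598, adjusted p = 0.11, and 2.300 ± 0.52, adjusted p = 0.015 without WT_CAF 1. Stat3, the transcription factor downstream of interleukin 6, was at 22.9 to 42.1 FPKM in NPF, 18.001 in WT_CAF 1 and 56.7 to 101 in WT_CAF 2 to 5 (0.72 ± 0.42, adjusted p = 0.35; 1.22 ± 0.26, adjusted p = 0.0095). Tnfaip2 was at 27.6 to 68.3 FPKM in NPF, 49.3 in WT_CAF 1 and 77.8 to 199 in the others (1.59 ± 0.54, adjusted p = 0.11; 2.09 ± 0.46, adjusted p = 0.012). For these 4 genes WT_CAF 2 to 5 lay above every NPF library. Immediate early genes, which rise within minutes of stimulation or tissue dissociation, had medians of 0.64 and 1.496, with 0 of 29 called with all libraries and 3 higher without WT_CAF 1. Ier3 of that list was at 112 to 143 FPKM in NPF, 181 in WT_CAF 1 and 404 to 1584 in the others (2.18 ± 0.61, adjusted p = 0.062; 2.73 ± 0.53, adjusted p = 0.0062). Nr4a2 and Ier5, a nuclear receptor and a stress response gene, rose without WT_CAF 1 (for Nr4a2 1.72 ± 0.73, adjusted p = 0.19; 2.48 ± 0.56, adjusted p = 0.014, and for Ier5 1.04 ± 0.72, adjusted p = 0.44; 1.83 ± 0.52, adjusted p = 0.039).

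Of 26 chemokines tested, 1 rose and 1 fell with all libraries, and 5 rose and 1 fell without WT_CAF 1. The membrane-bound chemokine Cx3cl1 stood at 3.07, 1.89 and 1.39 FPKM in NPF 1 to 3 and at 10.6, 17.6, 26.7, 11.9 and 31.7 in WT_CAF 1 to 5. For Cx3cl1 the difference was 2.64 ± 0.34, adjusted p = 6.7e-04, and 2.88 ± 0.33, adjusted p = 1.3e-04 without WT_CAF 1. It was the one chemokine that rose with all libraries, and WT_CAF 1 lay with its group. Ccl8, a monocyte attractant, stood at 305, 102 and 40.8 FPKM in NPF 1 to 3 and at 2.02, 5.28, 10.98, 71.6 and 2.02 in WT_CAF 1 to 5. For Ccl8 the difference was -4.14 ± 0.93, adjusted p = 0.025, and -3.79 ± 0.99, adjusted p = 0.029 without WT_CAF 1. WT_CAF 4, at 71.6 FPKM, was above NPF 3, so the groups overlapped for Ccl8. The neutrophil attractant Cxcl2 stood at 0.432, 1.83 and 2.41 FPKM in NPF 1 to 3 and at 3.89, 222, 169, 85.6 and 9.27 in WT_CAF 1 to 5. For Cxcl2 the difference was 4.56 ± 1.301, adjusted p = 0.064, and 5.73 ± 1.13, adjusted p = 0.0067 without WT_CAF 1. The interferon-induced Cxcl10 was at 2.05 to 6.17 FPKM in NPF, 0.905 in WT_CAF 1 and 7.2997 to 102 in the others (2.43 ± 1.13, adjusted p = 0.23; 3.68 ± 0.81, adjusted p = 0.013). WT_CAF 5 was the lowest of WT_CAF 2 to 5 for Cxcl2 and Cxcl10.

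Of 23 cytokines, 1 rose and 1 fell with all libraries, and 4 rose and 1 fell without WT_CAF 1. Tnfsf11, the osteoclast ligand RANKL, stood at 0.501, 0 and 0.0447 FPKM in NPF 1 to 3 and at 0.574, 15.7, 10.3, 21.9 and 9.55 in WT_CAF 1 to 5. For Tnfsf11 the difference was 2.76 ± 0.71, adjusted p = 0.044, and 3.53 ± 0.51, adjusted p = 8.9e-04 without WT_CAF 1. The alarmin Il33 stood at 2.65, 10.5 and 25.6 FPKM in NPF 1 to 3 and at 10.9, 187, 158, 595 and 274 in WT_CAF 1 to 5. For Il33 the difference was 3.07 ± 0.900, adjusted p = 0.069, and 4.02 ± 0.68, adjusted p = 0.0027 without WT_CAF 1. Granulocyte colony-stimulating factor, Csf3, was at 0 to 0.168 FPKM in NPF, 0.265 in WT_CAF 1 and 6.58 to 22.1 in the others (2.82 ± 0.87, adjusted p = 0.082; 3.67 ± 0.71, adjusted p = 0.0060). WT_CAF 1 was within the NPF range for Il33 and just above it for Tnfsf11 and Csf3. The epithelial cytokine Tslp went the other way, at 4.55 to 6.58 FPKM in NPF and 0 to 2.07 in WT_CAF (-1.91 ± 0.43, adjusted p = 0.025; -1.63 ± 0.42, adjusted p = 0.028). Of 22 cytokine receptors 0 were called with all libraries and 3 rose without WT_CAF 1. These were the interleukin 1 receptor Il1r1 (1.896 ± 0.69, adjusted p = 0.13; 2.71 ± 0.44, adjusted p = 0.0021), the interleukin 13 receptor chain Il13ra1 (1.27 ± 0.49, adjusted p = 0.16; 1.85 ± 0.31, adjusted p = 0.0025) and the interferon receptor chain Ifnar2 (0.38 ± 0.41, adjusted p = 0.65; 0.91 ± 0.201, adjusted p = 0.013). In the list of inflammatory fibroblast genes, 1 of 29 rose with all libraries (Hp) and 5 without WT_CAF 1, with medians of 0.12 and 0.86. Il6, the cytokine most used to name that state, stood at 129.8, 101 and 169 FPKM in NPF 1 to 3 and at 26.5, 995, 414, 653 and 79.6 in WT_CAF 1 to 5 and did not pass the test (0.92 ± 1.16, adjusted p = 0.70; 1.97 ± 0.996, adjusted p = 0.23). Il6 was singled out after its values were seen.

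Stra6, Rbp4, Rdh10 and Cyp26a1, of retinoid uptake, oxidation and breakdown, rose in tumor fibroblasts, and WT_CAF 1 was above every NPF library for each of them. Retinol reaches cells on the carrier Rbp4 through the receptor Stra6, is oxidized to retinal by Rdh10 and to retinoic acid by the Aldh1a enzymes, and retinoic acid is broken down by the Cyp26 enzymes. Of 21 tested, 4 rose with all libraries and 7 without WT_CAF 1, and 0 fell, with medians of 0.84 and 0.81. Rdh10 stood at 2.99, 6.51 and 7.26 FPKM in NPF 1 to 3 and at 96.5, 96.4, 109, 97.7 and 69.8 in WT_CAF 1 to 5, a range of 69.8 to 109 across all 5 WT_CAF libraries that does not meet the NPF range. The difference was 3.84 ± 0.32, adjusted p = 1.1e-05, 3.81 ± 0.35, adjusted p = 3.3e-05 without WT_CAF 1 and 3.96 within the libraries without an index. The exact permutation p was 0.0179 with all libraries and 0.0286 without WT_CAF 1, each the smallest the design allows, or 0.0714 and 0.0571 adjusted over 4 genes. KO_CAF held 62.5 to 74.2 FPKM of Rdh10 and the tumor cell libraries 62.1 to 145.

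Among uptake genes, Stra6 stood at 0.0474, 0.362 and 0.234 FPKM in NPF 1 to 3 and at 13.3, 15.1, 65.8, 8.33 and 20.6 in WT_CAF 1 to 5. For Stra6 the difference was 4.08 ± 0.84, adjusted p = 0.016, and 4.25 ± 0.91, adjusted p = 0.011 without WT_CAF 1. Rbp4 stood at 2.21, 5.91 and 7.81 FPKM in NPF 1 to 3 and at 17.3, 37.8, 39.4, 14.7 and 34.3 in WT_CAF 1 to 5. For Rbp4 the difference was 2.16 ± 0.43, adjusted p = 0.015, and 2.33 ± 0.46, adjusted p = 0.0068 without WT_CAF 1. No WT_CAF library of either gene was as low as an NPF library. The tumor cell libraries held 3.56 to 37.7 FPKM of Stra6 and 16.1 to 86.2 of Rbp4. WT_CAF 1 lay within the tumor cell range for Stra6, Rbp4 and Rdh10. The part of tumor cell RNA in its levels was not tested. Aldh1a2, which makes retinoic acid, stood at 26.5, 45.3 and 141 FPKM in NPF 1 to 3 and at 17.8, 605, 562, 454 and 227 in WT_CAF 1 to 5. For Aldh1a2 the difference was 1.93 ± 1.03, adjusted p = 0.31, and 3.09 ± 0.72, adjusted p = 0.017 without WT_CAF 1. In WT_CAF 1 Aldh1a2 was below every NPF library. Its relative Aldh1a1 stood at 696, 78.9 and 173 FPKM in NPF 1 to 3 and at 1.72, 71.8, 11.3, 63.4 and 81.7 in WT_CAF 1 to 5 and did not pass the test (-3.12 ± 1.33, adjusted p = 0.19; -2.07 ± 1.22, adjusted p = 0.31). Cyp26a1, which degrades retinoic acid and is induced by it, was at 0 to 0.0301 FPKM in NPF and stood at 3.69, 38.2, 7.86, 3.91 and 24.6 in WT_CAF 1 to 5 (3.17 ± 0.76, adjusted p = 0.032; 3.497 ± 0.79, adjusted p = 0.015). The reductase Dhrs3, which returns retinal to retinol, rose without WT_CAF 1 (1.09 ± 0.52, adjusted p = 0.25; 1.55 ± 0.46, adjusted p = 0.047). Aldh1a1, Aldh1a2, Cyp26a1 and Dhrs3 were singled out after their values were seen.

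**Figure D4:**
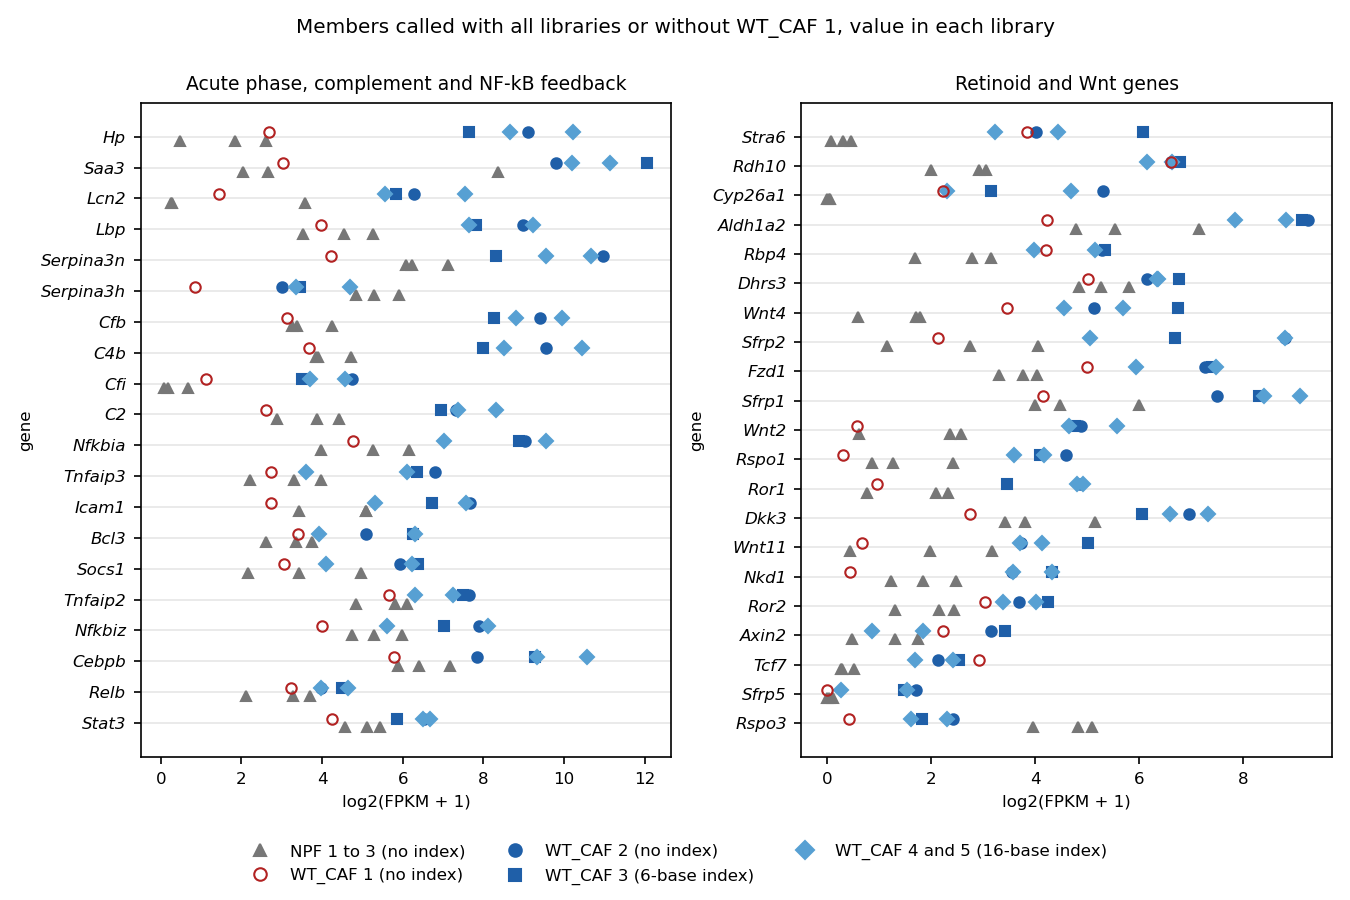
Level of called acute-phase, complement and NF-kB feedback genes (left) and of called retinoid and Wnt genes reported here (right), as log2(FPKM + 1) on the x axis, in each of the 8 libraries; triangles are NPF, the open circle is WT_CAF 1. On the left WT_CAF 1 lies apart from WT_CAF 2 to 5 for most genes, as for Cfb (7.79 against 307 to 984 FPKM), and on the right it lies with WT_CAF 2 to 5 for Rdh10, Stra6, Rbp4 and Tcf7.

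Wnt signaling genes included ligands, receptors and inhibitors that rose. Wnt ligands act on Frizzled and Ror receptors, secreted Sfrp and Dkk proteins modulate them, R-spondins amplify them, and Axin2 and Tcf7 are known targets. Of 38 tested, 4 rose and 1 fell with all libraries, and 14 rose and 1 fell without WT_CAF 1, with medians of 0.86 and 0.92. Of the ligands, Wnt4 stood at 0.501, 2.46 and 2.25 FPKM in NPF 1 to 3 and at 9.91, 33.8, 106, 22.6 and 50.2 in WT_CAF 1 to 5. For Wnt4 the difference was 4.08 ± 0.77, adjusted p = 0.010, and 4.74 ± 0.68, adjusted p = 8.1e-04 without WT_CAF 1. Wnt2 was at 0.528 to 4.97 FPKM in NPF, 0.489 in WT_CAF 1 and 24.2 to 46.4 in WT_CAF 2 to 5 (2.07 ± 0.89, adjusted p = 0.20; 3.18 ± 0.497, adjusted p = 0.0016). WT_CAF 1 was above NPF for Wnt4 and just below it for Wnt2. Of the receptors, Fzd1 stood at 8.87, 12.5 and 15.3 FPKM in NPF 1 to 3 and at 30.7, 153, 169, 59.9 and 177 in WT_CAF 1 to 5. For Fzd1 the difference was 2.99 ± 0.61, adjusted p = 0.016, and 3.55 ± 0.52, adjusted p = 9.7e-04 without WT_CAF 1, and Ror2 was at 1.46 to 4.43 FPKM in NPF and 7.201 to 18.1 in WT_CAF (1.81 ± 0.35, adjusted p = 0.011; 2.06 ± 0.33, adjusted p = 0.0019). The R-spondin Rspo3 fell, from 14.4 to 32.99 FPKM in NPF to 0.342 to 4.37 in WT_CAF (-2.99 ± 0.48, adjusted p = 0.0033; -2.59 ± 0.42, adjusted p = 0.0021). Of the targets, the transcription factor Tcf7 was at 0.199 to 0.434 FPKM in NPF and 2.21 to 6.54 in WT_CAF (1.99 ± 0.38, adjusted p = 0.011; 1.797 ± 0.39, adjusted p = 0.012), and Axin2 passed the test only without WT_CAF 1 (1.76 ± 0.48, adjusted p = 0.057; 1.996 ± 0.49, adjusted p = 0.022). The inhibitors Sfrp1 and Sfrp2 rose without WT_CAF 1 (for Sfrp1 2.48 ± 0.91, adjusted p = 0.13; 3.53 ± 0.61, adjusted p = 0.0030, and for Sfrp2 3.37 ± 1.24, adjusted p = 0.14; 4.66 ± 0.96, adjusted p = 0.0088). Ror2, Tcf7, Axin2, Sfrp1 and Sfrp2 were singled out after their values were seen.

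Of 42 growth factors, 1 rose and 4 fell with all libraries, and 5 rose and 6 fell without WT_CAF 1. The shares over all genes were 1.36% and 2.08%, and 5.05% and 4.61% without WT_CAF 1. The stress-induced TGF-beta relative Gdf15 stood at 31.7, 85.8 and 59.4 FPKM in NPF 1 to 3 and at 12.6, 2.86, 7.78, 5.65 and 1.32 in WT_CAF 1 to 5. For Gdf15 the difference was -3.05 ± 0.58, adjusted p = 0.011, and -3.39 ± 0.59, adjusted p = 0.0031 without WT_CAF 1. Fgf10, a growth factor from mesenchyme to epithelium, stood at 38.1, 22.5 and 16.5 FPKM in NPF 1 to 3 and at 1.303, 4.88, 5.62, 7.27 and 2.16 in WT_CAF 1 to 5. For Fgf10 the difference was -2.41 ± 0.43, adjusted p = 0.0080, and -2.06 ± 0.39, adjusted p = 0.0057 without WT_CAF 1. Stem cell factor, Kitl, was at 13.3 to 24.9 FPKM in NPF and 1.89 to 7.01 in WT_CAF (-1.64 ± 0.304, adjusted p = 0.0093; -1.58 ± 0.33, adjusted p = 0.0086). The groups did not overlap for Gdf15, Fgf10 and Kitl. The neurotrophic factor Gdnf was at 0.327 to 0.955 FPKM in NPF, 0.849 in WT_CAF 1 and 1.402 to 5.34 in the others (1.23 ± 0.34, adjusted p = 0.060; 1.55 ± 0.29, adjusted p = 0.0048). The ErbB ligand Areg was at 0.232 to 0.408 FPKM in NPF and 2.18 to 8.798 in WT_CAF (1.98 ± 0.45, adjusted p = 0.026; 1.67 ± 0.44, adjusted p = 0.028). Areg was singled out after its values were seen. In the IGF axis 0 of 14 were called with all libraries and 3 without WT_CAF 1. Without it the receptor Igf1r fell (-0.96 ± 0.27, adjusted p = 0.059; -1.21 ± 0.22, adjusted p = 0.0043), and the binding protein Igfbp4 (2.57 ± 0.71, adjusted p = 0.059; 2.72 ± 0.77, adjusted p = 0.039) and the protease Pappa2 (1.69 ± 0.62, adjusted p = 0.13; 2.18 ± 0.57, adjusted p = 0.028) rose.

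Of 31 axon guidance genes 3 rose and 1 fell with all libraries, and 8 rose and 3 fell without WT_CAF 1. The semaphorin Sema3e stood at 24.4, 7.48 and 7.77 FPKM in NPF 1 to 3 and at 2.01, 0.566, 0.164, 0.442 and 1.65 in WT_CAF 1 to 5. For Sema3e the difference was -2.87 ± 0.39, adjusted p = 0.0010, and -3.15 ± 0.37, adjusted p = 2.0e-04 without WT_CAF 1. The ephrins Efna1 (2.15 ± 0.48, adjusted p = 0.023; 1.83 ± 0.46, adjusted p = 0.025) and Efna5 (1.45 ± 0.33, adjusted p = 0.028; 1.33 ± 0.35, adjusted p = 0.030) rose, and Sema5a rose without WT_CAF 1 (1.53 ± 0.54, adjusted p = 0.12; 2.11 ± 0.395, adjusted p = 0.0052). Of 25 receptor tyrosine kinases the ephrin receptor Ephb4 rose with all libraries, from 6.02 to 9.597 FPKM in NPF to 15.1 to 41.4 in WT_CAF (1.84 ± 0.32, adjusted p = 0.0059; 1.86 ± 0.34, adjusted p = 0.0049). Without WT_CAF 1 the growth factor receptors Csf1r (1.33 ± 0.53, adjusted p = 0.16; 1.903 ± 0.38, adjusted p = 0.0077) and Fgfr2 (1.703 ± 0.87, adjusted p = 0.28; 2.55 ± 0.71, adjusted p = 0.036) also rose. Of 16 Notch genes the noncanonical ligand Dlk1 fell (-1.98 ± 0.43, adjusted p = 0.020; -2.02 ± 0.46, adjusted p = 0.016), and of 13 Hedgehog genes the receptor Ptch1, itself a target of the pathway, rose with 1 WT_CAF library inside the NPF range (1.45 ± 0.37, adjusted p = 0.044; 1.39 ± 0.399, adjusted p = 0.042). Of 34 genes of TGF-beta signaling 0 were called with all libraries. Without WT_CAF 1 the ligand Tgfb3 (1.26 ± 0.53, adjusted p = 0.19; 1.72 ± 0.46, adjusted p = 0.032), the receptor Tgfbr2 (0.895 ± 0.63, adjusted p = 0.45; 1.61 ± 0.44, adjusted p = 0.035) and the activin antagonist Fst (2.36 ± 0.75, adjusted p = 0.086; 2.78 ± 0.76, adjusted p = 0.034) rose.

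Most genes of the extracellular matrix did not pass the test, and neither did most of all genes tested. Over all genes 1.36% rose and 2.08% fell with all libraries, and 5.05% and 4.61% without WT_CAF 1. Of 24 collagen genes 0 were called with all libraries and 2 rose without WT_CAF 1 (medians 0.19 and 1.03). The difference was above 0 in 17 of the 24 with all libraries and in 22 without WT_CAF 1. Col8a2, a short-chain collagen, was at 0.865 to 2.42 FPKM in NPF, 1.46 in WT_CAF 1 and 5.51 to 27.7 in the others (2.03 ± 0.64, adjusted p = 0.085; 2.72 ± 0.46, adjusted p = 0.0025). Col16a1, of the class that binds to fibril surfaces, was at 11.5 to 33.6, 5.78 and 74.5 to 135 (1.302 ± 0.86, adjusted p = 0.42; 2.29 ± 0.58, adjusted p = 0.026). The main fibrillar collagen gene Col1a1 was at 312, 686 and 764 FPKM in NPF, 331 in WT_CAF 1 and 6494, 10435.5, 1838 and 3031 in WT_CAF 2 to 5. Col3a1 was listed at 0 in WT_CAF 2, 3 and 4 and at 5661 in WT_CAF 5, and Fn1 was listed at 0 in WT_CAF 1 and at 341 to 1855 in the others. Such zeros can be failed estimates, and no mean or difference is given for Col3a1 and Fn1. Col1a1, Col1a2 and Col3a1 were also listed at 0 in KO_CAF 2, whose values enter both the spread and the index term of the fit. For Col1a1 the difference was 2.07 ± 2.29, adjusted p = 0.66, and 2.998 ± 2.42, adjusted p = 0.48 without WT_CAF 1. With KO_CAF 2 left out, a setting chosen after its values were seen, it was 2.58 ± 1.22, adjusted p = 0.25, and 3.69 ± 1.04, adjusted p = 0.044 without WT_CAF 1, so that Col1a1 then passed the test in the latter fit. Col1a1 was singled out after its values were seen.

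Of 22 collagen-processing genes 0 were called with all libraries and 4 rose without WT_CAF 1. These were the procollagen protease Bmp1 (1.46 ± 0.54, adjusted p = 0.13; 2.06 ± 0.37, adjusted p = 0.0044), the prolyl hydroxylation cofactor Crtap (1.26 ± 0.52, adjusted p = 0.18; 1.85 ± 0.36, adjusted p = 0.0065), its relative Leprel2 (0.38 ± 0.81, adjusted p = 0.83; 1.44 ± 0.38, adjusted p = 0.031) and the hydroxylase subunit P4hb (0.78 ± 0.29, adjusted p = 0.14; 1.01 ± 0.27, adjusted p = 0.029). P4hb was at 360.2 to 380.01 FPKM in NPF and 746 to 768 in WT_CAF 2 to 5, with 394 in WT_CAF 1. Of 46 matrix glycoproteins 4 rose without WT_CAF 1 and 0 with all libraries. The microfibril protein Mfap2 was at 2.95 to 35.3 FPKM in NPF, 4.302 in WT_CAF 1 and 161 to 245 in the others (2.35 ± 1.06, adjusted p = 0.22; 3.61 ± 0.67, adjusted p = 0.0049). The others were fibrillin 2, Fbn2 (1.69 ± 0.66, adjusted p = 0.16; 2.47 ± 0.43, adjusted p = 0.0032), Emilin1 (0.84 ± 0.91, adjusted p = 0.65; 1.93 ± 0.57, adjusted p = 0.047) and Tgfbi (2.04 ± 0.81, adjusted p = 0.16; 2.62 ± 0.78, adjusted p = 0.048). Of 26 proteoglycans the heparan sulfate proteoglycan Sdc1 rose with all libraries and stood at 17.8, 17.4 and 11.03 FPKM in NPF 1 to 3 and at 315, 121, 79.2, 58.5 and 136 in WT_CAF 1 to 5. For Sdc1 the difference was 2.88 ± 0.51, adjusted p = 0.0073, and 2.42 ± 0.44, adjusted p = 0.0042 without WT_CAF 1. The glypican Gpc4 fell and stood at 73.3, 58.7 and 37.2 FPKM in NPF 1 to 3 and at 1.31, 11.7, 18.1, 23.1 and 22.9 in WT_CAF 1 to 5. For Gpc4 the difference was -2.43 ± 0.61, adjusted p = 0.040, and -1.72 ± 0.395, adjusted p = 0.016 without WT_CAF 1. Versican, Vcan, rose without WT_CAF 1 (1.42 ± 0.62, adjusted p = 0.21; 2.08 ± 0.46, adjusted p = 0.013).

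Of 32 matrix proteases 0 were called with all libraries and 7 rose without WT_CAF 1. The membrane-bound Mmp14 stood at 65.1, 106 and 151 FPKM in NPF 1 to 3 and at 104, 458, 676, 622 and 492 in WT_CAF 1 to 5. For Mmp14 the difference was 1.76 ± 0.49, adjusted p = 0.059, and 2.33 ± 0.32, adjusted p = 5.9e-04 without WT_CAF 1. The versican-cleaving Adamts15 was at 2.24 to 6.69 FPKM in NPF, 1.102 in WT_CAF 1 and 24.03 to 85.5 in the others (2.09 ± 0.900, adjusted p = 0.20; 3.22 ± 0.51, adjusted p = 0.0017). Mmp17 (0.68 ± 0.52, adjusted p = 0.49; 1.31 ± 0.31, adjusted p = 0.020) and Mmp23 (1.63 ± 1.16, adjusted p = 0.46; 3.01 ± 0.74, adjusted p = 0.022) rose without WT_CAF 1 as well. Of 15 cathepsins and cystatins, cathepsin C, Ctsc, rose in every WT_CAF library and stood at 6.26, 2.98 and 3.21 FPKM in NPF 1 to 3 and at 54.1, 56.2, 90.2, 51.5 and 81.3 in WT_CAF 1 to 5. For Ctsc the difference was 3.52 ± 0.36, adjusted p = 7.1e-05, and 3.54 ± 0.397, adjusted p = 1.2e-04 without WT_CAF 1. The lysosomal proteases Lgmn (1.63 ± 0.47, adjusted p = 0.066; 2.23 ± 0.25, adjusted p = 1.2e-04) and Ctss (2.63 ± 0.82, adjusted p = 0.083; 3.403 ± 0.68, adjusted p = 0.0074) rose and the inhibitor Cst6 fell (-1.29 ± 0.36, adjusted p = 0.059; -1.56 ± 0.33, adjusted p = 0.011) without WT_CAF 1. Of 21 serpins 3 fell with all libraries, Serpinb9b and Serpina3h as above and the neuronal inhibitor Serpini1 (-2.07 ± 0.36, adjusted p = 0.0065; -2.07 ± 0.39, adjusted p = 0.0058). Of 22 integrins, Itga8, an integrin chain of mesenchymal cells, stood at 3.77, 4.15 and 6.31 FPKM in NPF 1 to 3 and at 0.0477, 0.356, 0.213, 0.225 and 0.221 in WT_CAF 1 to 5. For Itga8 the difference was -2.25 ± 0.18, adjusted p = 8.9e-06, and -2.19 ± 0.19, adjusted p = 1.6e-05 without WT_CAF 1. Itga9 (1.02 ± 0.64, adjusted p = 0.39; 1.81 ± 0.37, adjusted p = 0.0083), Itgb8 (1.32 ± 0.36, adjusted p = 0.057; 1.46 ± 0.38, adjusted p = 0.027) and Itga1 (0.79 ± 0.57, adjusted p = 0.46; 1.44 ± 0.39, adjusted p = 0.034) rose without WT_CAF 1. Of 25 contractile genes 2 fell in both fits, the myosin phosphatase inhibitor Ppp1r14a (-2.99 ± 0.43, adjusted p = 0.0015; -2.74 ± 0.43, adjusted p = 0.0016) and the actin regulator Lmod1 (-1.48 ± 0.25, adjusted p = 0.0054; -1.34 ± 0.25, adjusted p = 0.0051). Smooth muscle actin, Acta2, stood at 306, 441 and 269.9 FPKM in NPF 1 to 3 and at 20.5, 219, 394, 71.99 and 612 in WT_CAF 1 to 5 and did not pass the test (-1.23 ± 1.04, adjusted p = 0.54; -0.33 ± 0.92, adjusted p = 0.87). Acta2 was singled out after its values were seen.

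Most MHC class II genes tested and several macrophage markers rose without WT_CAF 1. Of 7 MHC class II genes 0 were called with all libraries and 5 rose without WT_CAF 1, with medians of 1.75 and 2.67. Their chaperone Cd74 stood at 1.04, 2.76 and 7.67 FPKM in NPF 1 to 3 and at 0.647, 26.01, 64.2, 78.99 and 23.8 in WT_CAF 1 to 5. For Cd74 the difference was 2.05 ± 0.98, adjusted p = 0.25, and 3.16 ± 0.67, adjusted p = 0.010 without WT_CAF 1. H2-Aa was at 1.28 to 3.31 FPKM in NPF, 0.402 in WT_CAF 1 and 8.83 to 30.3 in the others (1.75 ± 0.78, adjusted p = 0.22; 2.67 ± 0.51, adjusted p = 0.0059). H2-Eb1 also rose without WT_CAF 1 (1.48 ± 0.69, adjusted p = 0.23; 2.34 ± 0.38, adjusted p = 0.0022). Of 14 macrophage markers 1 rose with all libraries, the Fc receptor Fcgr3 (2.74 ± 0.63, adjusted p = 0.026; 3.28 ± 0.55, adjusted p = 0.0026), and 7 rose without WT_CAF 1. The summed level of all 16 listed markers was 21.6 to 103 FPKM in NPF, 107 in WT_CAF 1 and 86.7 to 232 in WT_CAF 2 to 5, and Ptprc, which marks all white blood cells, was at 0.087 to 1.29 FPKM in WT_CAF 2 to 5 and at 0.029 to 0.240 in NPF. Macrophages carry MHC class II, Ctss, Csf1r and complement genes too, and their part in these rises was not tested. Of 19 MHC class I genes 3 rose without WT_CAF 1, namely H2-T23 (0.89 ± 0.43, adjusted p = 0.26; 1.38 ± 0.29, adjusted p = 0.0091), H2-Q7 (1.67 ± 0.77, adjusted p = 0.23; 2.42 ± 0.63, adjusted p = 0.028) and the proteasome subunit Psmb8 (1.12 ± 0.698, adjusted p = 0.39; 1.88 ± 0.505, adjusted p = 0.032). The MHC genes are near copies of one another, so their separate values are uncertain. Fcgr3 was singled out after its values were seen.

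Few interferon-induced genes were called, and those called went both ways. Over all genes 2.08% fell with all libraries, and 5.05% rose and 4.61% fell without WT_CAF 1. Of 29 tested, 3 fell with all libraries, and 2 rose and 3 fell without WT_CAF 1, with medians of -0.18 and 0.14. Ifit2 was at 6.74 to 9.23 FPKM in NPF and 0.138 to 3.903 in WT_CAF (-1.86 ± 0.39, adjusted p = 0.018; -1.52 ± 0.34, adjusted p = 0.013). Ifit3 was at 5.05 to 41.2 and 0.227 to 4.23 (-2.600 ± 0.62, adjusted p = 0.032; -2.303 ± 0.64, adjusted p = 0.036), and the GTPase Irgm1 at 15.9 to 53.5 and 5.01 to 11.6 (-1.66 ± 0.36, adjusted p = 0.020; -1.74 ± 0.39, adjusted p = 0.013). Oasl2, also interferon-induced, stood at 2.53, 3.28 and 3.99 FPKM in NPF 1 to 3 and at 0.558, 7.59, 21.2, 11.96 and 39.5 in WT_CAF 1 to 5. For Oasl2 the difference was 1.15 ± 0.73, adjusted p = 0.40, and 2.003 ± 0.47, adjusted p = 0.019 without WT_CAF 1. It was below NPF in WT_CAF 1 and above NPF in WT_CAF 2 to 5.

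Several genes of cholesterol synthesis fell. Of 27 tested, 3 fell with all libraries and 9 without WT_CAF 1, and 0 rose, with medians of -0.44 and -0.80. WT_CAF 1 was above all other WT_CAF libraries in 24 of 27, where it was above them in 29.6% of all genes tested. Nsdhl, which removes methyl groups from sterols, stood at 32.1, 37.2 and 22.9 FPKM in NPF 1 to 3 and at 34.2, 5.104, 5.63, 6.91 and 5.39 in WT_CAF 1 to 5. For Nsdhl the difference was -1.68 ± 0.48, adjusted p = 0.062, and -2.301 ± 0.24, adjusted p = 6.8e-05 without WT_CAF 1. The desaturase Sc5d stood at 46.9, 52.2 and 30.6 FPKM in NPF 1 to 3 and at 20.4, 5.64, 5.69, 12.6 and 6.99 in WT_CAF 1 to 5. For Sc5d the difference was -2.13 ± 0.41, adjusted p = 0.011, and -2.495 ± 0.35, adjusted p = 6.5e-04 without WT_CAF 1. The sterol oxidase Msmo1 stood at 108, 94.1 and 50.5 FPKM in NPF 1 to 3 and at 67.97, 11.002, 11.1, 24.2 and 18.9 in WT_CAF 1 to 5. For Msmo1 the difference was -2.12 ± 0.55, adjusted p = 0.049, and -2.74 ± 0.38, adjusted p = 6.7e-04 without WT_CAF 1. Idi1, an early enzyme of the pathway, changed by -1.75 ± 0.34, adjusted p = 0.011 and -1.99 ± 0.32, adjusted p = 0.0018. Of 15 genes of lipid storage, the lipid carrier Apoe rose (0.64 ± 1.02, adjusted p = 0.77; 1.95 ± 0.52, adjusted p = 0.032) and the fatty acid carrier Fabp5 fell (-2.71 ± 0.83, adjusted p = 0.079; -3.11 ± 0.86, adjusted p = 0.036) without WT_CAF 1, and 0 were called with all libraries.

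Of 33 antioxidant genes 1 rose and 1 fell with all libraries, and 1 rose and 5 fell without WT_CAF 1. Nqo1, a quinone reductase induced by NRF2, stood at 19.9, 57.9 and 28.8 FPKM in NPF 1 to 3 and at 5.23, 3.93, 1.88, 4.07 and 5.61 in WT_CAF 1 to 5. For Nqo1 the difference was -2.83 ± 0.56, adjusted p = 0.012, and -2.97 ± 0.600, adjusted p = 0.0077 without WT_CAF 1. Glutathione reductase, Gsr, went the other way and stood at 8.21, 7.06 and 6.27 FPKM in NPF 1 to 3 and at 88.5, 25.4, 13.2, 27.6 and 79.9 in WT_CAF 1 to 5. For Gsr the difference was 1.88 ± 0.49, adjusted p = 0.048, and 1.36 ± 0.36, adjusted p = 0.032 without WT_CAF 1. Gclm, of glutathione synthesis, and the cystine carrier Slc7a11 fell without WT_CAF 1 (for Gclm -1.43 ± 0.38, adjusted p = 0.053; -1.85 ± 0.26, adjusted p = 7.8e-04, and for Slc7a11 -1.495 ± 0.395, adjusted p = 0.051; -1.83 ± 0.35, adjusted p = 0.0058). Of 28 genes of ER stress and ATF4, asparagine synthetase, Asns, fell with all libraries and stood at 87.3, 51.4 and 54.2 FPKM in NPF 1 to 3 and at 29.1, 15.3, 10.4, 25.5 and 15.3 in WT_CAF 1 to 5. For Asns the difference was -1.85 ± 0.41, adjusted p = 0.023, and -2.100 ± 0.404, adjusted p = 0.0060 without WT_CAF 1. Without WT_CAF 1, 7 fell, among them the glutathione-degrading Chac1 (-2.27 ± 0.65, adjusted p = 0.064; -2.96 ± 0.48, adjusted p = 0.0018) and the pseudokinase Trib3 (-1.62 ± 0.62, adjusted p = 0.15; -2.35 ± 0.39, adjusted p = 0.0023). Of 18 iron genes Trf and the zinc and iron carrier Slc39a14 (1.98 ± 0.46, adjusted p = 0.028; 2.48 ± 0.33, adjusted p = 5.1e-04) rose in both fits. Of 27 genes of glycolysis and hypoxia the lactate carrier Slc16a1 rose and stood at 6.35, 5.55 and 6.17 FPKM in NPF 1 to 3 and at 32.8, 29.95, 26.9, 47.6 and 27.2 in WT_CAF 1 to 5. For Slc16a1 the difference was 2.17 ± 0.32, adjusted p = 0.0019, and 2.14 ± 0.35, adjusted p = 0.0021 without WT_CAF 1. The hypoxia-induced Ndrg1 (1.55 ± 0.602, adjusted p = 0.16; 2.15 ± 0.48, adjusted p = 0.014) and the hexokinase Hk2 (1.43 ± 0.48, adjusted p = 0.10; 1.67 ± 0.49, adjusted p = 0.047) rose without WT_CAF 1. Of 29 genes of oxidative phosphorylation and 27 ribosomal genes 0 were called in either fit by limma. Those with the smallest p were Idh3a (-0.71 ± 0.26, adjusted p = 0.14; -0.74 ± 0.28, adjusted p = 0.11) and Ndufa1 (-1.26 ± 0.51, adjusted p = 0.17; -1.13 ± 0.55, adjusted p = 0.21), and Rpl3 (0.55 ± 0.34, adjusted p = 0.38; 0.72 ± 0.35, adjusted p = 0.21) and Rpl13 (0.37 ± 0.38, adjusted p = 0.63; 0.61 ± 0.38, adjusted p = 0.34).

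Ccnd2 fell in both fits and Ccnd1 without WT_CAF 1, while most cell cycle genes did not pass the test. D-type cyclins pair with CDK4 and CDK6 to start the cycle in response to growth factors. Ccnd2 stood at 90.6, 84.7 and 64.8 FPKM in NPF 1 to 3 and at 8.396, 9.48, 10.9, 14.2 and 11.9 in WT_CAF 1 to 5. For Ccnd2 the difference was -2.81 ± 0.35, adjusted p = 5.0e-04, and -2.71 ± 0.37, adjusted p = 6.4e-04 without WT_CAF 1. Ccnd1 stood at 129, 137 and 73.5 FPKM in NPF 1 to 3 and at 161, 2.68, 1.91, 0.616 and 2.18 in WT_CAF 1 to 5. For Ccnd1 the difference was -3.62 ± 1.08, adjusted p = 0.074, and -5.002 ± 0.57, adjusted p = 1.3e-04 without WT_CAF 1. WT_CAF 1 held the highest Ccnd1 level of the 8 libraries, inside the tumor cell range of 19.1 to 164 FPKM, and the other WT_CAF libraries were below 3 FPKM. Of 33 genes of S phase and mitosis 0 were called with all libraries and Mki67, a marker of cycling cells, passed the test without WT_CAF 1 (0.71 ± 0.23, adjusted p = 0.096; 0.87 ± 0.21, adjusted p = 0.019). Its groups overlapped, with WT_CAF 4 below every NPF library, and without WT_CAF 1 the difference was 0.32 with no term for the index, where it did not pass the test. Of 17 genes of MAPK feedback the phosphatase Dusp5 rose in both fits (1.33 ± 0.32, adjusted p = 0.032; 1.32 ± 0.34, adjusted p = 0.029), and Dusp6 fell without WT_CAF 1 (-0.57 ± 0.51, adjusted p = 0.57; -1.18 ± 0.31, adjusted p = 0.031).

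Of 41 mesenchymal transcription factors 2 rose and 1 fell with all libraries, and 4 rose and 1 fell without WT_CAF 1. Over all genes 1.36% rose and 2.08% fell, and 5.05% and 4.61% without WT_CAF 1. Runx1, a blood and mesenchymal factor, stood at 3.72, 3.16 and 2.44 FPKM in NPF 1 to 3 and at 14.5, 20.5, 23.2, 19.9 and 52.4 in WT_CAF 1 to 5. For Runx1 the difference was 2.53 ± 0.34, adjusted p = 0.0010, and 2.72 ± 0.35, adjusted p = 3.7e-04 without WT_CAF 1. The paired-type homeobox gene Prrx2 stood at 3.39, 12.3 and 9.49 FPKM in NPF 1 to 3 and at 80.6, 50.9, 111, 61.8 and 28.1 in WT_CAF 1 to 5. For Prrx2 the difference was 2.704 ± 0.58, adjusted p = 0.020, and 2.52 ± 0.62, adjusted p = 0.022 without WT_CAF 1. All 5 WT_CAF libraries were above NPF for both. Snai2, of epithelial-mesenchymal transition, fell (-1.57 ± 0.41, adjusted p = 0.050; -1.87 ± 0.39, adjusted p = 0.0090), and the mesothelial factor Wt1 rose without WT_CAF 1 (1.94 ± 0.94, adjusted p = 0.25; 3.04 ± 0.61, adjusted p = 0.0075). The mean over 11 mesothelial markers was 1.88 to 2.51 in NPF, 2.45 in WT_CAF 1 and 2.59 to 4.20 in WT_CAF 2 to 5, with Upk3b at 2.46 to 15.5 FPKM in the latter. The part of mesothelial RNA in the rise of Wt1 was not tested. Of 23 Hox genes 2 fell with all libraries, Hoxb9 as above and Hoxb5 (-1.71 ± 0.38, adjusted p = 0.025; -1.35 ± 0.32, adjusted p = 0.019), and Hoxd8 rose without WT_CAF 1 (0.72 ± 0.58, adjusted p = 0.51; 1.41 ± 0.36, adjusted p = 0.026).

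Some large differences appeared only without WT_CAF 1. Dmkn, a secreted keratinocyte protein, stood at 0.711, 1.14 and 4.59 FPKM in NPF 1 to 3 and at 0.942, 143, 155, 83.5 and 82.9 in WT_CAF 1 to 5. For Dmkn the difference was 4.27 ± 1.28, adjusted p = 0.074, and 5.84 ± 0.75, adjusted p = 3.9e-04 without WT_CAF 1. Trem2, a receptor of myeloid cells, stood at 0.838, 0.554 and 0.136 FPKM in NPF 1 to 3 and at 0.679, 33.8, 100.1, 10.1 and 61.4 in WT_CAF 1 to 5. For Trem2 the difference was 3.996 ± 1.15, adjusted p = 0.066, and 5.26 ± 0.84, adjusted p = 0.0018 without WT_CAF 1. The proliferin gene Prl2c3, a near copy of Prl2c2, stood at 80.4, 48.2 and 25.4 FPKM in NPF 1 to 3 and at 46.2, 0.4996, 0.1201, 0 and 0.000357 in WT_CAF 1 to 5. For Prl2c3 the difference was -3.796 ± 1.05, adjusted p = 0.059, and -5.05 ± 0.66, adjusted p = 4.7e-04 without WT_CAF 1. WT_CAF 1 lay at the NPF level for Dmkn, Trem2 and Prl2c3. The small RNA genes Snora65, Mir8112 and Snora7a and the pseudogene Atp6v0c-ps2 also had large falls without WT_CAF 1. Such short or copied genes are poorly measured here, and Snora65 and Snora7a were listed at 0 in libraries where failed estimates are possible.

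Among the genes named in the text, the groups overlapped for 7 of the 80 called with all libraries (Calca, Ccl8, Efna5, Mir686, Msmo1, Ptch1 and Snai2), and for 15 of the 168 called without WT_CAF 1 (Atp6v0c-ps2, Axin2, Ccl8, Dusp6, Efna5, Hk2, Ier5, Leprel2, Mir686, Mki67, Nr4a2, Ptch1, Snai2, Vcan and Wt1). Across genes, WT_CAF 1 did not sit at a fixed place between the groups. Of the 675 genes that rose without it, WT_CAF 1 was above every NPF library in 295 (43.7%), where it was so for 33.5% of all genes. Of the 616 genes that fell without it, it was below every NPF library in 378 (61.4%), where it was so for 37.7% of all genes. On a scale from the NPF mean at 0 to the mean of WT_CAF 2 to 5 at 1, its median place was 0.035 for the former and 0.54 for the latter. Both sets of genes were called against the same NPF libraries, which favours a place of WT_CAF 1 on the called side. The shares over all genes therefore do not serve as a comparison for them. Of the genes named, Ccng1, Mdm2 and Hoxb9 were low in WT_CAF 1 too, while Cfb, C4b, Nfkbia and Cd74 were not high there.

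**Figure D5:**
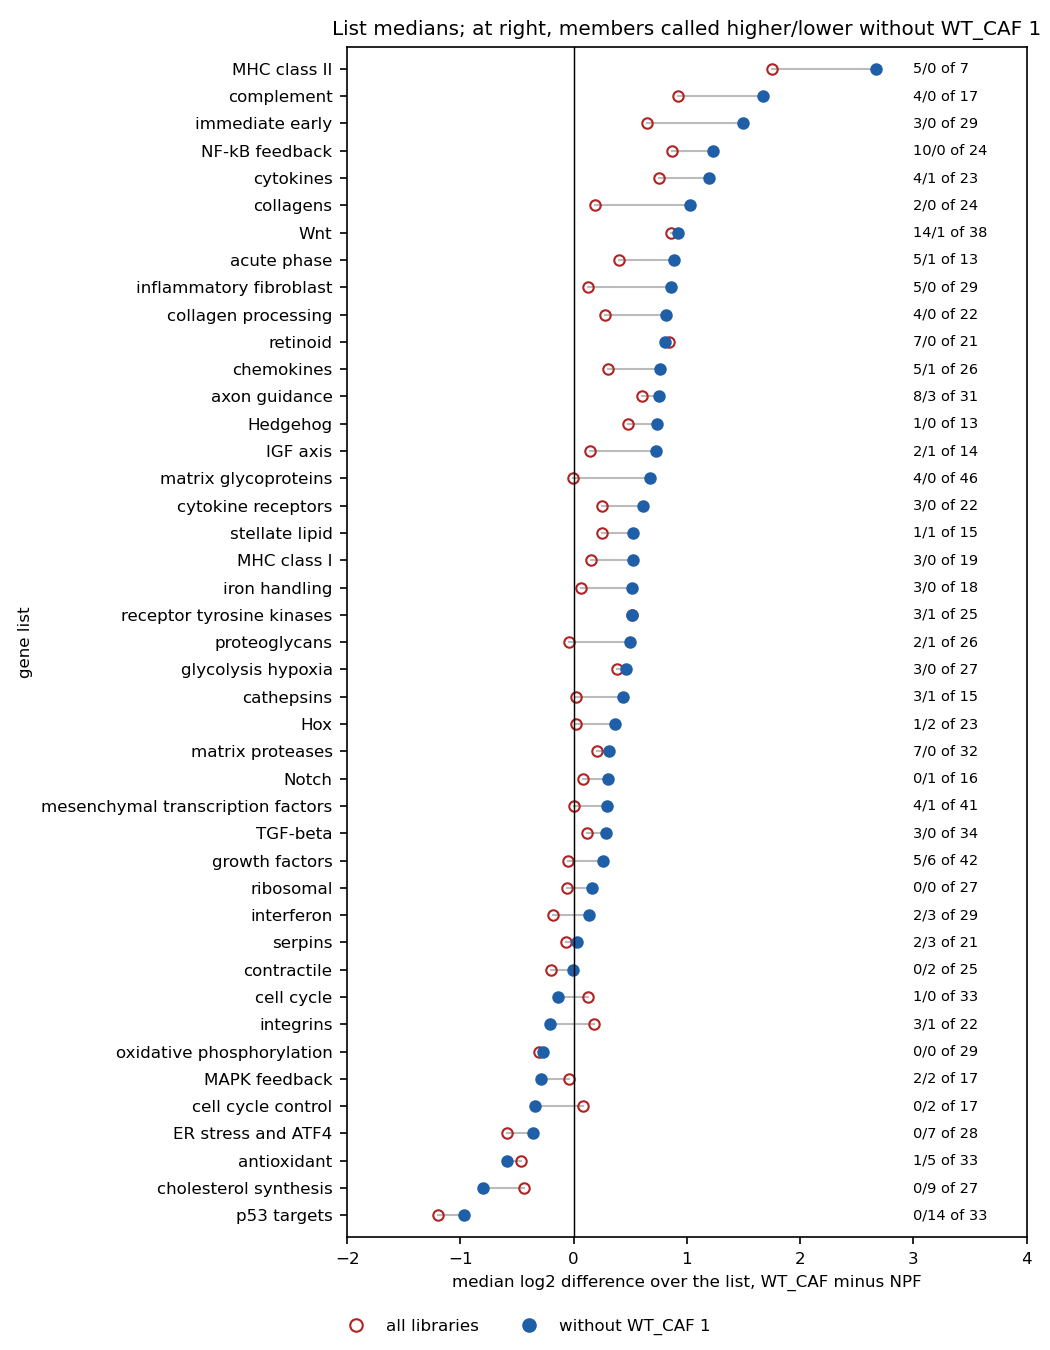
Median log2 difference, WT_CAF minus NPF (x axis), over the tested members of each gene list, with all libraries (open circles) and without WT_CAF 1 (filled circles); the numbers at right count members called higher and lower without WT_CAF 1 and members tested. Marker lists of cell types are left out, among them the acinar list with medians of -5.94 and -5.56. Of the lists plotted the p53 targets have the lowest median in both fits (-1.20 and -0.96), and the MHC class II genes the highest (1.75 and 2.67), with 7 members.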

How the data were processed

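RNA of sorted fibroblasts and tumor cells was sequenced from TruSeq poly(A) libraries, per the labels' protocols. The authors deposited one table of FPKM for 23951 gene symbols in 18 libraries. The submitters' processing notes list TopHat2 (2.0.10) with Bowtie (version 1.0.0), as well as Cufflinks (version 2.2.1) and Cuffnorm. They also list SAMtools (version 0.1.19) and, among the builds, mm9. FPKM from Cuffnorm carries no fragment counts, so depth and counting error are unknown, and short genes, overlapping genes and near copies are uncertain.

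Genes had to reach 1 FPKM in 3 or more libraries, which 13369 did and 10582 did not. limma 3.58.1 in R 4.3.3 was fitted to log2(FPKM + 1) of all 18 libraries, with a variance trend, the 5 groups and a term for libraries whose label carries a 16-base index (12 residual degrees of freedom), and again without WT_CAF 1 (11). p was adjusted by Benjamini-Hochberg, and a gene was called under 0.05. A term for all 3 label forms, used in an earlier processing of these data, takes WT_CAF 3 to 5 out of the estimate because NPF has only one form, so it was kept as an alternative. Saa3, Pdgfra, Rdh10 and Trp53 also had two-sided exact permutation tests over 56 or 35 splits. The script was tested on simulated data.

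Genes named are the 12 largest called differences in each direction with a mean of at least 5 FPKM in the higher group, called with and without WT_CAF 1 and of the same sign within the libraries without an index, up to 4 called genes per list or the 2 of smallest p, the genes given exact tests, up to 6 large differences in each direction without WT_CAF 1, and defining markers. Others are said to have been chosen after their values were seen. Members and lists were chosen with earlier results of these data known. Replicate numbers follow accession order. The series design states biological replicates, and p-values measure only the spread between these libraries. Promoter windows are RefSeq, GRCm38.p6, and serve for letters only, since the table's build differs. Part of the mouse genotype in the labels and some list members are not reported here; list counts and medians cover all members tested. Alternatives were other scalings, filters, pseudocounts, terms and left-out libraries.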

Additional observations from a re-analysis of the deposited data

Results flagged for a closer look

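In groups of 5 libraries a value was marked when its gap to the nearest of the others was at least 0.71 of the group's range on the log2(FPKM + 1) scale. Of 190 items tested 36 were marked, where chance marks about 5% of groups, and the items are not independent because they share libraries. Many of the genes were named because they were called, or differed most, without WT_CAF 1, so that choice favours marks of WT_CAF 1 and the 5% does not serve as a comparison for them. WT_CAF 1 was the marked low library for 26 of them, each with the gap as a share of the range. These were Aldh1a2 (0.718), Apoe (0.803), C2 (0.759), Calca (0.766), Ccng1 (0.829), Cfb (0.754), Col16a1 (0.804), Col1a2 (0.768), Crtap (0.81), Csf1r (0.828), Dmkn (0.859), Emilin1 (0.787), Gpc4 (0.726), Itga1 (0.74), Itga9 (0.792), Leprel2 (0.737), Mdm2 (0.784), Mfap2 (0.892), Mmp14 (0.791), Mmp23 (0.85), P4hb (0.956), Pdgfra (0.835), Saa3 (0.749), Tnfsf11 (0.71), Wnt2 (0.818) and fibroblast marker mean (0.757). It was the marked high library for 6, namely Ccnd1 (0.821), Cst6 (0.952), Ddit4l (0.752), Nsdhl (0.852), Prl2c3 (0.895) and Trib3 (0.8). WT_CAF 2 was marked as lowest for Irgm1 (0.723). WT_CAF 3 was marked as lowest for Atp6v0c-ps2 (0.885). WT_CAF 5 was marked as lowest for Rdh10 (0.723). WT_CAF 5 was marked as highest for Crct1 (0.878). Rdh10 in WT_CAF 5 was still far above every NPF library, and Crct1 in WT_CAF 5 was still below every NPF library.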

How the results depend on the processing

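The number of calls depended on the processing. With all libraries, 37 genes were higher and 90 lower with all 3 label forms as a term, 1 and 0 within the libraries without an index, 6 and 16 in a fit of the 8 libraries alone, and 460 and 477 with libraries weighted by their spread, where 182 and 278 were called. Lower calls numbered 185 with no term for the index and 479 with no filter. Without WT_CAF 1 and without the term there were 518 higher and 392 lower calls, and without WT_CAF 1 and with all 3 forms 101 and 87. In the fit without WT_CAF 1, where 675 and 616 were called, the same settings gave 172 and 7, 211 and 116, and 357 and 321. Leaving out 1 library at a time gave 38 (without NPF 2) to 675 (without WT_CAF 1) higher and 85 to 616 lower calls, and 54 and 149 without NPF 1 and 102 and 172 without WT_CAF 3. From the fit without WT_CAF 1 the range was 316 (without NPF 2) to 693 (without NPF 3) higher and 279 to 718 lower. That fit also gave 341 and 350 without NPF 1, 426 and 411 without WT_CAF 2, and 410 and 332 without WT_CAF 3. Of the named genes called with all libraries, 47 of 80 lost their call with all 3 forms as a term, 17 of 80 with no term, 79 of 80 within the libraries without an index, 69 of 80 in the fit of the 8 libraries alone, 41 of 80 without NPF 1 and 47 of 80 without NPF 2. Of those called without WT_CAF 1, 115 of 168, 26 of 168, 147 of 168, 92 of 168, 50 of 168 and 54 of 168 lost it under the same settings. With no term the difference was over 1.5 times smaller for 0 of 80 called with all libraries and 7 of 168 called without WT_CAF 1 (Atp6v0c-ps2, Axin2, Hk2, Mir686, Mki67, Sema5a and Vcan). The cause was not tested.

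Single genes changed sign under some settings. With all 3 forms as a term, and with the same values within the libraries without an index, these were Apoe (-0.67), Dusp6 (0.037), Emilin1 (-0.30), Ifnar2 (-0.25), Leprel2 (-0.75), Mmp17 (-0.091), Oasl2 (-0.21) and Psmb8 (-0.039), none of them called with all libraries. Pdgfra, not called with all libraries, was at 0.40 without WT_CAF 1, 0.095 with libraries weighted by their spread, 0.28 with no term for the index and without WT_CAF 1, 0.56 with all 3 forms of the label as a term and without WT_CAF 1. Leprel2, not called with all libraries, was at -0.066 without WT_CAF 3. Rpl13, not called with all libraries, was at -0.047 with no term for the index. Rpl3, not called with all libraries, was at -0.078 with no term for the index, -0.11 with no term for the index and without WT_CAF 1, -0.11 with no term for the index in the fit without WT_CAF 1. Acta2, not called with all libraries, was at 0.099 without WT_CAF 4 in the fit without WT_CAF 1. Leaving out 1 library at a time gave -0.066 to 1.44 for Leprel2, -0.76 to 0.40 for Pdgfra and -0.68 to 0.099 for Acta2 in the fit without WT_CAF 1. Other scalings moved the median of all genes by -0.056 to 0.0016. With KO_CAF 2 left out, a setting chosen after seeing the data, 7 of 80 of the named genes lost their call with all libraries and 7 of 168 without WT_CAF 1. Depth limits are unknown, because FPKM gives no counts. No paired analysis was possible because the replicate numbers follow accession order and no label ties a WT_CAF mouse to an NPF mouse.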
